A study of Mus musculus with 8 samples.

Results

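Interferon-stimulated genes are the genes that cells switch on when an interferon binds its receptor, and 41 of them, chosen by symbol from the antiviral program, were followed here among the 55487 genes of the table. The samples are labelled as the stromal vascular fraction of subcutaneous MC38 tumors, described as what remained after GFP-labelled tumor cells were removed by fluorescence-activated sorting. MC38 is a mouse colon cancer line, and all hosts bore the same line. By their labels the hosts were 4 Bmal1+/+ mice and 4 Bmal1-/- mice, the latter meaning a knockout of the core clock gene Bmal1 in the host animal and not in the tumor cells, and both genotypes were bred from Bmal1+/- founders. There was 1 bulk RNA library per sample, no treatment is named for these samples, and the age of the mice is not given in the sources used here.

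The libraries held between 14054825 and 18449143 counts, so that 3 counts, the detection floor used here, corresponded to 0.163 to 0.213 CPM, that is counts put on the scale of a common library size; this limit covers counting error only. The targeted transcript went against both labels: Bmal1 (Arntl) had 0.960 to 2.71 CPM in the libraries labelled Bmal1+/+ and 30.1 to 35.0 CPM in the libraries labelled Bmal1-/-. Both names are used below as labels only, and each direction given is between labels. Xist was high in all Bmal1+/+ libraries and Ddx3y was counted in all libraries labelled Bmal1-/- and at 0 counts in the others, so sex and genotype label cannot be told apart. The tissue label is in doubt as well, since 20 hepatocyte markers summed to 105200 to 150400 CPM, with Alb, which encodes albumin, at 64320 to 71870 CPM in Bmal1+/+ libraries and 12740 to 18830 CPM in the others. The Kupffer cell marker Clec4f had 85.9 to 203 CPM. Stromal and vascular markers were present at uneven levels. Among fibroblast markers Fap had 0 to 0.390 CPM, Col1a1 2.78 to 5.68 CPM and Dcn 71.6 to 149 CPM. Among endothelial markers Emcn had 1.6 to 4.1 CPM, Kdr 34.8 to 76.6 CPM and Stab2 57.9 to 85.4 CPM. Replicate 4 of the libraries labelled Bmal1-/- stood apart, with 7751 CPM of the acute-phase gene Saa1 against 10.9 to 80.4 CPM in the other 7 libraries.

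Type I interferons signal through a receptor, Janus kinases and a complex with STAT2 and IRF9 that binds the interferon-stimulated response element, whereas targets of interferon-γ often carry GAS elements. The induced proteins bind or degrade viral RNA, modify proteins with ISG15, attack membranes around intracellular pathogens and prepare peptides for display on class I molecules. Macrophages, endothelium, fibroblasts and hepatocytes are all able to express them.

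Most of the interferon-stimulated genes were lower in the libraries labelled Bmal1-/-, and the steepest were Gbp3, Igtp, Gbp2 and Ifit3b. Of these, Ifit3b rests on 8 to 22 counts in the libraries labelled Bmal1-/- and shares sequence with Ifit3. All 41 passed the expression filter. With edgeR's quasi-likelihood test and Benjamini-Hochberg adjustment over 14353 genes, 27 of 41 were lower with adjusted p below 0.05, which is 65.9% of them against 16.2% of all genes tested, and 0 were higher against 14.9% of all genes tested. By unadjusted p below 0.05, 30 were lower and 1, Bst2, was higher, and DESeq2 and limma-voom also called 0 higher. The members' median log2 fold change was -0.89, beside 0.02 over all genes tested. In 24 members, or 58.5%, all 4 libraries labelled Bmal1-/- lay below all 4 Bmal1+/+ libraries, against 16.8% of all genes tested. By the criterion of the study's methods, an absolute log2 fold change above 1 with unadjusted p below 0.05, 17 members or 41.5% were lower, against 8.71% of all genes tested. The members were chosen with earlier results of these data known, so these shares describe the list and do not test it. Exons of 17 members overlap those of another annotated gene, so some of their reads may belong to a neighbor. Tissue was measured in bulk, so fewer cells of a type and less RNA per cell cannot be told apart in any of these differences.

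**Figure D1:**
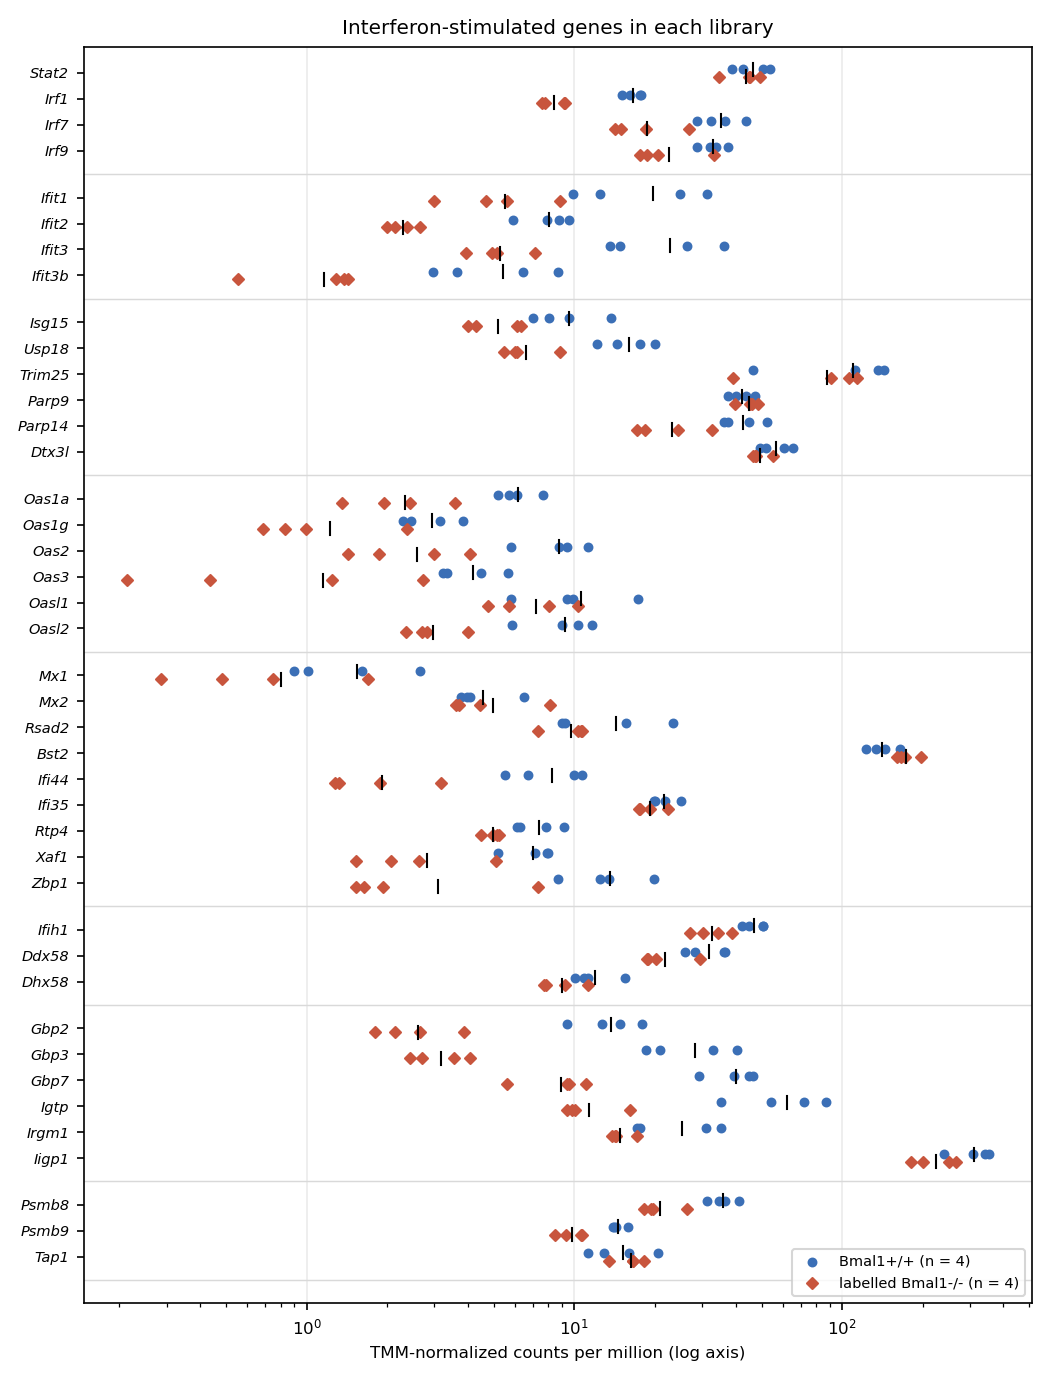
Normalized CPM (log axis) of each interferon-stimulated gene in the 4 Bmal1+/+ libraries (blue circles) and the 4 libraries labelled Bmal1-/- (red diamonds), grouped by role, with black ticks at the group means. The 2 groups do not overlap in 24 of the 41 genes, and the red points lie to the left in each of these.

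The promoter letters of the members were read from RefSeq (GRCm38.p6), in windows from 250 bases before to 50 bases after the start of transcription, which 31 of the 41 members have. A pair of interferon response elements was searched on both strands: the core of the interferon-stimulated response element, GAAANNGAAA, and the GAS element, TTCNNNGAA, whose matches can overlap. The first was in 17 of 31 members (54.8%) and in 3.99% of 27025 genes with a window, and the second was in 8 of 31 (25.8%) and in 9.55% of all. The members were chosen as known interferon-stimulated genes, so a high share with these elements comes with the choice and says nothing about the labels. Among members with a window, the response element core was in 14 of the 22 that were lower and in 3 of the 9 that were not called. These counts are small and 10 members have no window, so no link between element and direction is drawn. The stretches below run in the direction of transcription, with matches of the response element core in capitals unless another element is named. They are shown because they belong to families that fell together and to members of the same program that did not. The first lines are Isg15, Ifit1, the Ifit3 and Ifit3b copies, the Oas1a and Oas1g copies, Igtp and Gbp7, which were lower.
Isg15 (chr4:156200860-156200911, minus strand): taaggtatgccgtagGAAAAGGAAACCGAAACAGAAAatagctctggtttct
Ifit1 (chr19:34640770-34640828, plus strand): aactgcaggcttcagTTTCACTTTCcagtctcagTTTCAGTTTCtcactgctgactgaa
Ifit3 (chr19:34583358-34583431, plus strand): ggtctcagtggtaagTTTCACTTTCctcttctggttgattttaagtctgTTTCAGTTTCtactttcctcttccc
Ifit3b (chr19:34607754-34607827, plus strand): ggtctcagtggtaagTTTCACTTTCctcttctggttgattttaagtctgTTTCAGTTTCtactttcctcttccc
Oas1a (chr5:120907526-120907560, minus strand): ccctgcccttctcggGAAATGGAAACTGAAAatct
Oas1g (chr5:120887614-120887646, minus strand): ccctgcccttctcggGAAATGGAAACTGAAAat
Igtp (chr11:58199507-58199546, plus strand): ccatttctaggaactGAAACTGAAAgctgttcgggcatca
Gbp7 (chr3:142530268-142530307, plus strand): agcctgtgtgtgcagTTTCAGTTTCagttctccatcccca

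The Ifit3 and Ifit3b stretches are letter for letter the same, and the Oas1a and Oas1g stretches differ only in length. The match nearest the start began 66 bases before it in Isg15, 85 in Ifit1, 34 in Igtp and 53 in Gbp7. Matches were also present in Stat2 and Bst2, which were not lower, and the next lines show them. A GAS match inside the Igtp stretch is left in lower case there. Another inside the Bst2 stretch is in lower case except for its last letters, which belong to the response element core.
Stat2 (chr10:128270261-128270300, plus strand): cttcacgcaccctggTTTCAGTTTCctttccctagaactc
Bst2 (chr8:71537572-71537617, minus strand): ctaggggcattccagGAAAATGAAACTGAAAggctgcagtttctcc

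Irf1 had a GAS match and no response element core in its window, with the match, in capitals here, beginning 90 bases before the start. Trim25 was the only member with a window whose letters hold the E-box CACGTG, in capitals here, the sequence that BMAL1 with CLOCK is known to bind, which was in 8.09% of all genes with a window.
Irf1 (chr11:53769909-53769947, plus strand): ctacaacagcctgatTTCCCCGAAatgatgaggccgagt
Trim25 (chr11:88999340-88999375, plus strand): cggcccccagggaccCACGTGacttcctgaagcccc

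The transcription factors of the response were divided. Irf1, which drives many interferon-γ targets, and Irf7, the amplifier of type I interferon production, were lower, whereas Stat2 and Irf9, partners in the complex that binds the response element, were not called. Irf1 had 17.7, 17.6, 15.1 and 16.1 CPM in Bmal1+/+ replicates 1 to 4 and 7.56, 7.76, 9.11 and 9.22 CPM in the libraries labelled Bmal1-/-, in the same order. Its spread within a label was among the smallest of the members, and the lowest Bmal1+/+ value was well above the highest of the others. Its log2 fold change was -0.98 (SE 0.12, adjusted p = 3.5e-04), where SE is the standard error. Irf7 had 43.6, 28.7, 36.5 and 32.3 CPM in Bmal1+/+ libraries and 14.9, 14.1, 18.6 and 26.8 CPM in the others. The groups did not overlap, though replicate 4 of the libraries labelled Bmal1-/- came within 2 CPM of the lowest Bmal1+/+ library, and the log2 fold change was -0.92 (SE 0.21, adjusted p = 0.0095). Stat2 had 38.9 to 53.6 CPM in Bmal1+/+ libraries and 34.7 to 49.5 CPM in the others, with a log2 fold change of -0.09 (SE 0.14, adjusted p = 0.65). Irf9 missed the threshold with a log2 fold change of -0.55 (SE 0.20, adjusted p = 0.057), and replicate 4 of the libraries labelled Bmal1-/-, at 33.1 CPM, lay within the Bmal1+/+ range of 28.7 to 37.6 CPM.

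All 4 IFIT genes were lower and none of them overlapped between labels. IFIT proteins bind viral RNA ends and block their translation, and the 4 genes lie on chromosome 19 of GRCm38, from Ifit2 at 34550694 to Ifit1 ending at 34650009. Ifit3 had 36.1, 14.8, 13.6 and 26.4 CPM in Bmal1+/+ libraries and 3.93, 5.12, 4.91 and 7.12 CPM in the libraries labelled Bmal1-/-, a log2 fold change of -2.11 (SE 0.33, adjusted p = 0.0013). Ifit3b had 8.67, 3.65, 2.96 and 6.40 CPM and 1.37, 0.554, 1.42 and 1.29 CPM in the same order, a log2 fold change of -2.22 (SE 0.41, adjusted p = 0.003). These copies share sequence, since 51.2% of the 50-base stretches of Ifit3 transcripts also occur in transcripts of Ifit3b, so how reads were divided between them is uncertain. Ifit1, with 31.3, 9.86, 12.5 and 24.8 CPM against 3.00, 5.61, 4.70 and 8.82 CPM, had a log2 fold change of -1.83 (SE 0.42, adjusted p = 0.0088). Ifit2, with 8.73, 7.88, 5.91 and 9.52 CPM against 2.37, 2.15, 1.99 and 2.65 CPM, had a log2 fold change of -1.80 (SE 0.19, adjusted p = 1.5e-04). Among Bmal1+/+ libraries Ifit1, Ifit3 and Ifit3b were higher in replicates 1 and 4 than in replicates 2 and 3, and the coefficient of variation of Ifit1 reached 51.8%.

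Of the ISG15 system and the ADP-ribose enzymes, 3 of 6 were lower. Isg15 encodes a ubiquitin-like protein that is attached to other proteins, and Usp18 the protease that removes it and also restrains the type I receptor. Usp18 had 20.04, 14.5, 12.2 and 17.5 CPM in Bmal1+/+ libraries and 5.995, 5.47, 6.12 and 8.82 CPM in the others, with no overlap and a log2 fold change of -1.28 (SE 0.20, adjusted p = 0.0014). Isg15 had 13.7, 6.98, 8.06 and 9.52 CPM and 4.00, 4.29, 6.12 and 6.31 CPM, with a log2 fold change of -0.89 (SE 0.24, adjusted p = 0.021), and the lowest Bmal1+/+ library was only slightly above the highest of the others. Parp14, an ADP-ribosyltransferase of macrophage signaling, had 52.3, 36.3, 44.9 and 37.4 CPM and 24.3, 18.4, 17.1 and 32.8 CPM, a log2 fold change of -0.89 (SE 0.21, adjusted p = 0.011). Parp9 and its partner, the E3 ligase Dtx3l, were not called: the log2 fold change of Parp9 was 0.09 (SE 0.11, adjusted p = 0.55) and that of Dtx3l was -0.21 (SE 0.12, adjusted p = 0.21). Parp9 and Dtx3l have overlapping exons on opposite strands of chromosome 16, and whether the counting used strand is not given in the sources used here.

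Trim25, the E3 ligase that activates the RNA sensor RIG-I, was not called, and it is described per library because of its values. It had 137, 46.4, 111 and 143 CPM in Bmal1+/+ libraries and 90.6, 114, 106 and 39.1 CPM in the libraries labelled Bmal1-/-. Replicate 2 of the Bmal1+/+ libraries and replicate 4 of the others were low, and the remaining 6 lay between 90.6 and 143 CPM. The log2 fold change was -0.32 (SE 0.38, adjusted p = 0.56).

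The OAS genes were nearly uniformly lower. OAS enzymes sense double-stranded RNA and make the messenger that activates RNase L, and 5 of the 6 members were called. Oas3 had 5.66, 4.48, 3.23 and 3.34 CPM in Bmal1+/+ libraries and 0.437, 1.25, 0.213 and 2.71 CPM in the others, a log2 fold change of -1.85 (SE 0.57, adjusted p = 0.032). Its lowest library held 3 counts, the floor, so this fold rests on few reads. Oas2 had 11.2, 9.41, 5.78 and 8.74 CPM and 3.00, 1.87, 1.42 and 4.07 CPM, and its log2 fold change was -1.76 (SE 0.32, adjusted p = 0.0031). Oasl2, an OAS-like protein, had 11.7, 9.03, 5.84 and 10.4 CPM and 2.81, 2.70, 2.35 and 4.00 CPM, and its log2 fold change was -1.64 (SE 0.25, adjusted p = 0.0011). In both the groups stayed apart. Oas1a had 7.64, 5.70, 6.11 and 5.18 CPM and 2.44, 1.94, 1.352 and 3.60 CPM, with a log2 fold change of -1.40 (SE 0.28, adjusted p = 0.0047). Its copy Oas1g was lower too, at -1.26 (SE 0.38, adjusted p = 0.032) on the log2 scale with overlapping groups, and 57.6% of the 50-base stretches of Oas1a transcripts occur in Oas1g too. Oasl1, a repressor of Irf7 translation, was the exception, at 5.78 to 17.3 CPM in Bmal1+/+ libraries and 4.78 to 10.3 CPM in the others, with a log2 fold change of -0.56 (SE 0.34, adjusted p = 0.24).

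Mx proteins and other antiviral effectors were the most mixed group, with 4 of 9 lower. Zbp1, which senses Z-form nucleic acid and starts necroptosis, had 19.9, 8.71, 12.4 and 13.5 CPM in Bmal1+/+ libraries and 1.94, 1.52, 1.64 and 7.33 CPM in the libraries labelled Bmal1-/-, a log2 fold change of -2.13 (SE 0.49, adjusted p = 0.0096). Replicate 4 of the latter was several times the other 3 and still under the lowest Bmal1+/+ library. Ifi44, an inducible antiviral protein, had 10.7, 5.51, 6.72 and 9.97 CPM and 1.87, 1.32, 1.28 and 3.19 CPM, a log2 fold change of -2.10 (SE 0.33, adjusted p = 0.0014). Xaf1, a pro-apoptotic antagonist of XIAP, had 7.95, 7.11, 5.17 and 7.91 CPM and 2.62, 1.52, 2.06 and 5.09 CPM, a log2 fold change of -1.31 (SE 0.34, adjusted p = 0.015). Its highest library labelled Bmal1-/-, replicate 4, all but met the lowest Bmal1+/+ library. Rtp4, a chaperone that also limits viral genome amplification, had 9.15, 6.27, 6.11 and 7.85 CPM and 4.50, 5.12, 4.98 and 5.22 CPM, a log2 fold change of -0.57 (SE 0.17, adjusted p = 0.028).

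The other effectors were not called. Bst2, the tetherin that holds budding virions at the cell surface, was the most abundant member per length in the authors' FPKM, which divide counts by library total and gene length, with 124 ± 17.2 FPKM (SD, n = 4) in Bmal1+/+ libraries and 155 ± 13.8 FPKM (SD, n = 4) in the others, and its log2 fold change on counts was 0.30 (SE 0.12, adjusted p = 0.088). Mx2 had a log2 fold change of 0.12 (SE 0.30, adjusted p = 0.79) and Mx1 of -0.93 (SE 0.53, adjusted p = 0.21), the latter on 4 to 44 counts per library. The annotation lists Mx2 as a polymorphic pseudogene. Rsad2, the viperin that makes a chain-terminating nucleotide, had a log2 fold change of -0.55 (SE 0.30, adjusted p = 0.19), and Ifi35 of -0.18 (SE 0.12, adjusted p = 0.3).

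The cytosolic RNA helicases that sense viral RNA showed small differences. Ifih1, which encodes MDA5, had 50.7, 44.8, 42.2 and 50.5 CPM in Bmal1+/+ libraries and 30.2, 34.4, 27.1 and 38.7 CPM in the others, with no overlap and a log2 fold change of -0.53 (SE 0.13, adjusted p = 0.012). Ddx58, which encodes RIG-I, had 36.2, 26.0, 28.2 and 36.4 CPM and 18.7, 18.9, 20.1 and 29.6 CPM, a log2 fold change of -0.54 (SE 0.18, adjusted p = 0.045), and replicate 4 of the libraries labelled Bmal1-/- overlapped the Bmal1+/+ range. Dhx58, which encodes their regulator LGP2, had a log2 fold change of -0.40 (SE 0.18, adjusted p = 0.12) and was not called.

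The guanylate-binding proteins and immunity-related GTPases held the steepest falls among the members. Both families are interferon-γ-induced GTPases that attack vacuoles of intracellular pathogens, and 5 of 6 were lower. Gbp3 had 40.6, 20.8, 18.5 and 33.1 CPM in Bmal1+/+ libraries and 3.56, 2.42, 2.70 and 4.07 CPM in the libraries labelled Bmal1-/-, so that the latter averaged 11.3% of the former. The lowest Bmal1+/+ library was over 4 times the highest of the others, and the log2 fold change was -3.14 (SE 0.29, adjusted p = 5.9e-05). Igtp (Irgm3) had 87.2, 35.1, 54.1 and 72.2 CPM and 10.1, 9.77, 9.39 and 16.1 CPM, a log2 fold change of -2.45 (SE 0.29, adjusted p = 2.6e-04). Some of its exons overlap those of Irgm2 on the same strand. Gbp2 had 17.9, 9.41, 12.6 and 14.8 CPM and 3.87, 1.801, 2.13 and 2.65 CPM, a log2 fold change of -2.38 (SE 0.27, adjusted p = 2.2e-04). Gbp7 had 45.1, 29.3, 39.3 and 46.5 CPM and 11.1, 9.35, 5.62 and 9.56 CPM, a log2 fold change of -2.17 (SE 0.22, adjusted p = 1.1e-04). Exons of Gbp7 overlap those of the pseudogene Gm43802 on the same strand by 637 bases. Of the 50-base stretches of Gbp7 transcripts, 12.7% also occur in transcripts of other genes. In each of these 4 the groups were apart, and the 3 Gbp genes lie on chromosome 3 between 142530342 and 142638008. Irgm1, a regulator of the other IRG proteins, was also lower, at -0.76 (SE 0.24, adjusted p = 0.034) on the log2 scale, with overlapping groups. Iigp1, the second most abundant member per length, had 26.7 ± 4.55 FPKM (SD, n = 4) in Bmal1+/+ libraries and 19.7 ± 3.39 FPKM (SD, n = 4) in the others, and its log2 fold change of -0.47 (SE 0.17, adjusted p = 0.06) missed the threshold.

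Immunoproteasome subunits were lower and the peptide transporter was not called. Psmb8 and Psmb9 replace catalytic subunits of the proteasome, and Tap1 moves the resulting peptides into the endoplasmic reticulum. Psmb8 had 41.2, 31.2, 36.6 and 34.7 CPM in Bmal1+/+ libraries and 19.4, 19.7, 18.2 and 26.3 CPM in the others, a log2 fold change of -0.78 (SE 0.14, adjusted p = 0.0028). Psmb9 had 15.8, 14.3, 14.04 and 13.98 CPM and 10.6, 10.7, 9.32 and 8.48 CPM, a log2 fold change of -0.57 (SE 0.12, adjusted p = 0.0061), with the tightest Bmal1+/+ values of all members. Tap1 had 11.3 to 20.6 CPM and 13.5 to 18.2 CPM, a log2 fold change of 0.10 (SE 0.19, adjusted p = 0.73). Psmb9 and Tap1 have overlapping exons on opposite strands.

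**Figure D2:**
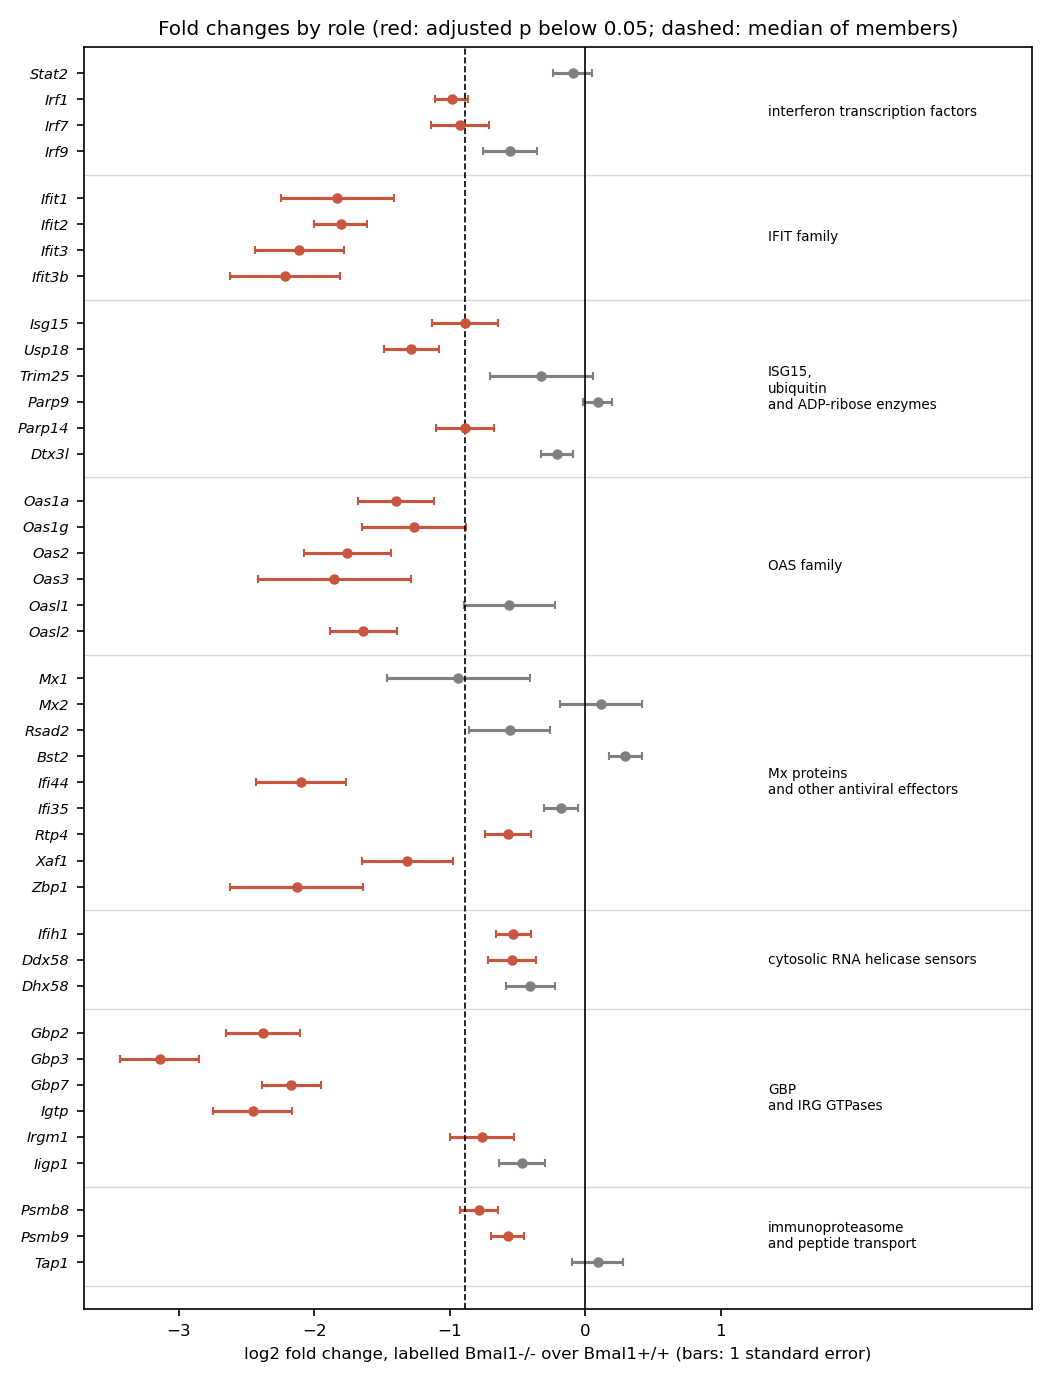
Log2 fold change of each interferon-stimulated gene, libraries labelled Bmal1-/- over Bmal1+/+ (x axis), with bars of 1 standard error, grouped by role; red marks adjusted p below 0.05 and the dashed line the members' median of -0.89. The fold changes of the 27 called members run from -3.14 for Gbp3 to -0.53 for Ifih1, and 4 members, Parp9, Mx2, Bst2 and Tap1, lie above 0.

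The members tended to be high in the same libraries of a label. How many of all genes tested had such a pattern was not computed, so it is not read as particular to the members. Bmal1+/+ replicate 1 was the highest of its label for 33 of the 41 members, and replicates 2 or 3 were the lowest for 36. In 26 members both replicates 1 and 4 exceeded both replicates 2 and 3. Among the libraries labelled Bmal1-/-, replicate 4 was the highest for 34 of 41, with a median deviation from the label mean of 0.35 on the log2(CPM + 0.1) scale. In the same library the 12 markers of macrophages and Kupffer cells summed to 695 CPM, against 342 to 387 CPM in the other 3 libraries of that label and 776 to 977 CPM in Bmal1+/+ libraries. Other leukocyte markers were also high in it: neutrophil markers summed to 41.5 CPM against 2.63 to 3.68 CPM in those 3 libraries. Pan-leukocyte markers summed to 57.6 CPM against 26.4 to 34.0 CPM. T cell markers, at 1.97 CPM against 2.63 to 4.62 CPM, were not higher. Without replicate 4, 31 members were lower, the 27 named above together with Irf9, Mx1, Dhx58 and Iigp1, and the members' median log2 fold change was -1.03.

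**Figure D3:**
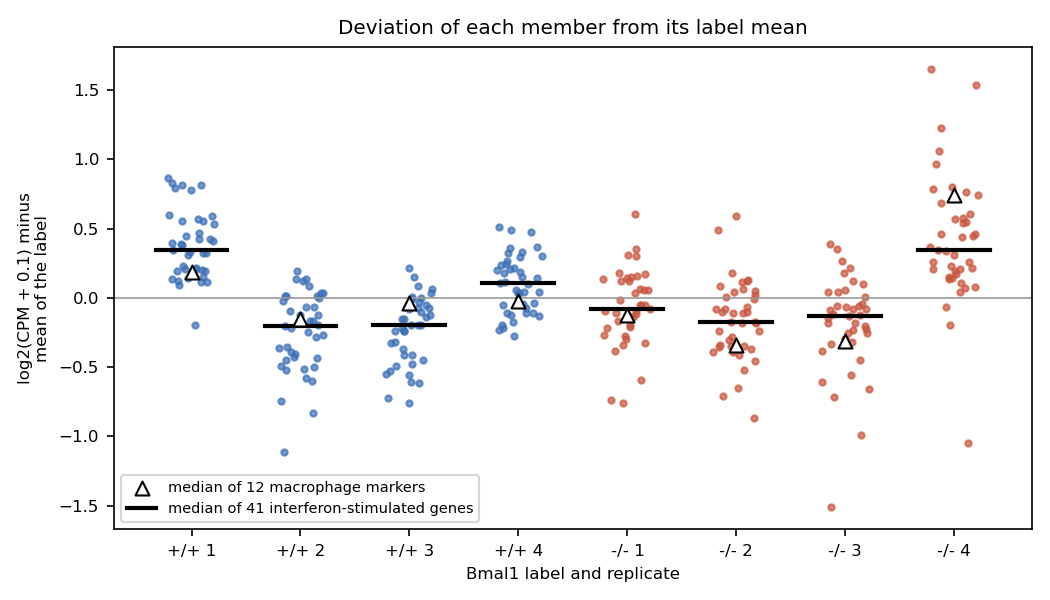
Deviation of each of the 41 interferon-stimulated genes from the mean of its label, in log2(CPM + 0.1) units (y axis), by library; black bars are medians over the 41 genes and triangles the medians over 12 macrophage and Kupffer cell markers. Replicate 1 of Bmal1+/+ (median 0.34) and replicate 4 of the libraries labelled Bmal1-/- (median 0.35) lie above the others of their label, and the macrophage markers of the latter deviate by 0.74.

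Markers of several cell types moved in the same direction as the members. Of the 12 macrophage and Kupffer cell markers 11 were lower, with a median log2 fold change of -1.07, and the pan-macrophage gene Adgre1 had a log2 fold change of -1.31 (SE 0.21, adjusted p = 0.0014). Ptprc, the pan-leukocyte CD45 gene, had 21.2, 18.9, 22.8 and 24.1 CPM in Bmal1+/+ libraries and 8.87, 6.79, 4.27 and 13.8 CPM in the others. Of the pan-leukocyte markers 4 of 5 were lower, of endothelial markers 4 of 7 and of fibroblast markers 4 of 7 tested. Of hepatocyte markers 1 of 20 was lower and 5 were higher. The shares over all genes tested were 16.2% lower and 14.9% higher. Lymphoid and plasmacytoid markers were scarce, with T cell markers summing to 1.97 to 4.62 CPM and plasmacytoid dendritic cell markers to 1.21 to 4.42 CPM over the 8 libraries. Siglech, which defines the latter, was at 0.167 to 0.687 CPM. NK cell markers were scarce too, with at most 30 counts of a gene in any library. Of the 7, only 2 passed the expression filter and 0 were called. Summed over the 7, they had 3.79 to 5.74 CPM in Bmal1+/+ libraries and 0.623 to 2.25 CPM in the others, with no overlap. For 13 members the log2 fold change was below that of every macrophage marker, the lowest of which, Marco at -1.55, was not called. In other marker lists, Alb at -2.10 and the epithelial marker Krt19 at -2.18 lay below Marco too, and the other tested genes did not. The share of all genes tested below Marco was not computed, so the count of 13 is not read as particular to the members. The part of cell composition in the members' differences was not tested.

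The rest of the pathway was examined from further lists. The ligands were almost undetected: of 21 interferon genes, 17, among them Ifnb1, had 0 counts in all 8 libraries, and the other 4, Ifnk, Ifnab, Ifnz and Ifng, had at most 5 counts in any library. Of 8 receptor and Janus kinase genes tested, 1 was lower, beside 16.2% of all genes tested. This was Il10rb, the shared chain of the interferon-λ and IL-10 receptors, with a log2 fold change of -0.99 (SE 0.19, adjusted p = 0.0043). The type I receptor chains Ifnar1 and Ifnar2 had log2 fold changes of -0.35 and 0.36 and were not called.

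Upstream sensing and feedback showed no common direction. In lists this small, the counts called are not read as departures from the shares over all genes tested. Of 14 sensing genes tested, Mavs, Traf3 and Irf8 were lower, beside 16.2% of all genes, and the kinase gene Ikbke was higher, beside 14.9%. Irf8, a factor of macrophages and dendritic cells, had the steepest of these with a log2 fold change of -1.23 (SE 0.20, adjusted p = 0.0017), whereas that of the adaptor Mavs was -0.38 (SE 0.10, adjusted p = 0.016). Of 9 inhibitors tested, 2 were higher, beside 14.9% of all genes, and 7 were not called. The higher ones belong to the PIAS family of STAT inhibitors: Pias3 had a log2 fold change of 0.87 (SE 0.22, adjusted p = 0.013) and Pias4 of 0.73 (SE 0.11, adjusted p = 9.2e-04).

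Of 58 further interferon-stimulated genes tested, 37 were lower, against 16.2% of all genes tested, and 1 was higher, against 14.9%. Their median log2 fold change was -0.996, and this list too was chosen with earlier results of these data known. Among those with the smallest adjusted p, the guanylate-binding protein Gbp11 had 35.8, 8.20, 9.54 and 21.9 CPM in Bmal1+/+ libraries and 1.62, 1.87, 1.21 and 1.83 CPM in the others, a log2 fold change of -3.52 (SE 0.49, adjusted p = 6.8e-04). Trim30a, a negative regulator of inflammatory signaling, had a log2 fold change of -1.43 (SE 0.18, adjusted p = 3.3e-04), and Apol9a, an apolipoprotein L gene, of -1.66 (SE 0.21, adjusted p = 4.2e-04). Lgals9, which encodes galectin-9, was the gene that was higher, with a log2 fold change of 0.65 (SE 0.13, adjusted p = 0.0056). Of 13 further genes of class I antigen presentation, 8 were lower, against 16.2% of all genes tested, and 1 was higher, against 14.9%. Among the lower ones, the class I heavy chain H2-K1 had a log2 fold change of -0.81 (SE 0.13, adjusted p = 0.0014). That of the immunoproteasome subunit Psmb10 was -1.22 (SE 0.18, adjusted p = 9.9e-04). The chaperone Calr was the higher one, with a log2 fold change of 0.88 (SE 0.15, adjusted p = 0.0022).

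**Figure D4:**
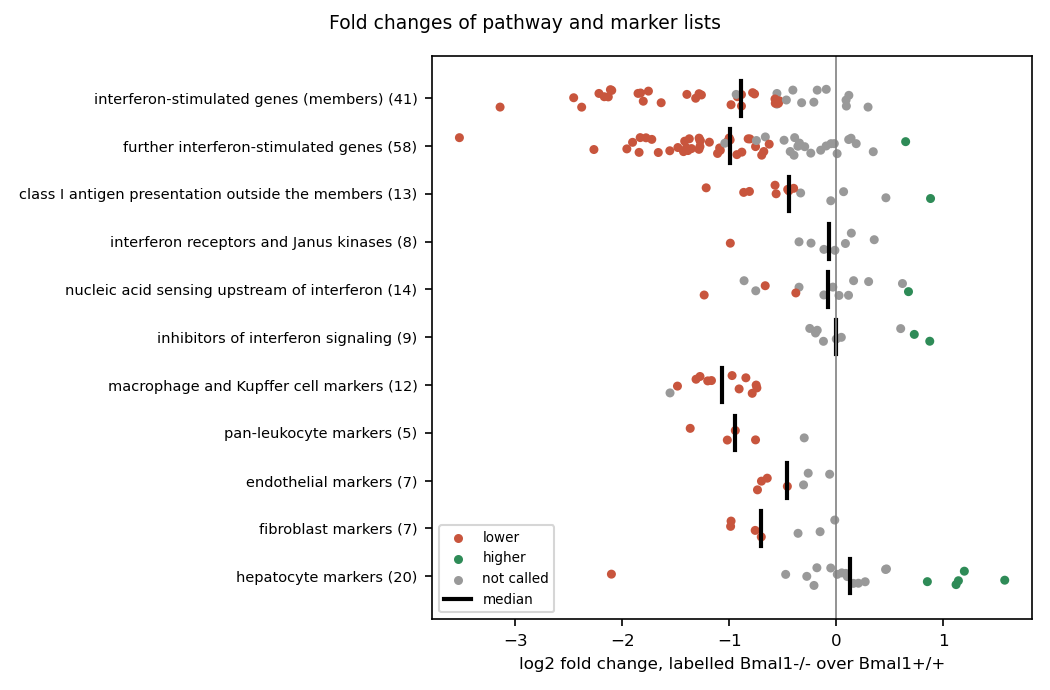
Log2 fold changes, libraries labelled Bmal1-/- over Bmal1+/+ (x axis), of the tested genes of each pathway and marker list, with the number of genes in parentheses; red is lower and green higher with adjusted p below 0.05, grey is not called and black bars are medians. The medians are -0.89 for the members, -0.996 for the further interferon-stimulated genes, -1.07 for macrophage markers and 0.13 for hepatocyte markers.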

How the data were processed

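Counts per gene for 8 mouse RNA libraries were deposited by the authors, who mapped reads to GRCm38 with HISAT2 and counted with StringTie; the submitters' processing notes name CASAVA 1.8 and TopHat2 2.0.6 instead. The deposited counts are whole numbers without normalization. The authors also deposited FPKM, which equal count over library total and 1 gene length within 1%, and these were used only to compare levels between genes. Coordinates and symbols come from GENCODE annotation of GRCm38 (99.4% of identifiers matched) and promoters from RefSeq.

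The groups were compared with the quasi-likelihood test of edgeR 4.0.16 in R 4.3.3, after its filterByExpr filter and TMM scaling, with no covariate and Benjamini-Hochberg adjustment over 14353 genes; CPM are TMM-scaled. The standard error is the log2 fold change over the square root of F. Fold changes use a prior count of 0.125. Alternatives used DESeq2 1.42.0, limma 3.58.1 (voom), other scalings and filters, the replicate block and each library left out. Figures were drawn with matplotlib 3.10.9. Scripts were tested on simulated data. Library totals were 14054825 to 18449143.

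Samples were grouped by genotype label; replicate 4 of the libraries labelled Bmal1-/- carries that number in its description and a different one in its title. The members, gene lists and tests were chosen with earlier results of these data known. Per-library values are given for called members with a mean of at least 1 CPM, largest fold change first, up to 4 per role. Trim25, Clec4f, Fap, Dcn, Emcn, Kdr, Stab2 and Marco were added after their values were seen. Same-numbered libraries of the 2 labels did not deviate together (correlations -0.06 to 0.06). No pair of libraries of 1 label agreed within sampling noise (chi-square per degree of freedom at least 19.7). The result of 1 gene of the pathway lists is not reported here. The strand setting of the counting is not given in the sources used here.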

Additional observations from a re-analysis of the deposited data

Results flagged for a closer look

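In each label the 4 values of each member were examined for a library whose gap to the nearest other exceeded the critical value of Dixon's test for 4 values. This held in 9 of 82 groups. The nominal rate of the test is about 1 in 20, for independent and normally distributed values. The groups share the same libraries, so the comparison cannot show an excess over that rate. In replicate 4 of the libraries labelled Bmal1-/-, 5 members were far above the rest of the label: Dtx3l at 55.2 CPM (others 46.5 to 47.6), Zbp1 at 7.33 CPM (1.52 to 1.94), Ddx58 at 29.6 CPM (18.7 to 20.1), Igtp at 16.1 CPM (9.39 to 10.1) and Irgm1 at 17.2 CPM (13.8 to 14.3). This is the library with 7751 CPM of Saa1 and 695 CPM of macrophage markers, and their part in these values was not tested. In replicate 2 of the same label Ifit3b was far below the rest at 0.554 CPM (1.29 to 1.42), on 8 counts, and Rsad2 at 7.34 CPM (10.3 to 10.7). In Bmal1+/+ replicate 1, Mx2 stood at 6.501 CPM (3.76 to 4.07) and Psmb9 at 15.8 CPM (13.98 to 14.3).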

How the results depend on the processing

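Over 17 alternatives the count of members called lower stayed within 1.5 times the reported 27. It was 27 with limma-voom and each of 4 other scalings, 29 with DESeq2, 22 without the filter on low counts, 25 of the 38 members left with at least 10 counts in every sample, and 26 with the replicate block, where the members' median was -0.92. The block is not a pairing given by the labels. Leaving out each library gave 21 to 31 lower members and a median of -1.03 to -0.71, and 0 members were higher in any alternative. Of the 27, 21 were called in every alternative that tested them (Ifit3b was not tested with at least 10 counts in every sample). Isg15 lost the call in 3 of 17 alternatives. Oas1g, Rtp4, Ddx58 and Irgm1 each lost the call in 7 of 17, and Oas3 in 7 of the 16 that tested it. Irf9, Mx1, Dhx58 and Iigp1 gained a call in at least 1. With 1 library left out, the log2 fold change of Mx2 went from -0.222 without replicate 4 of the libraries labelled Bmal1-/- to 0.336 without Bmal1+/+ replicate 1, and that of Tap1 from -0.027 without Bmal1+/+ replicate 2 to 0.268 without Bmal1+/+ replicate 4. Neither was called; the cause was not tested. Mx1 and Oas3 are limited by depth, with libraries at 3 to 4 counts. Sex and genotype label cannot be told apart in this design.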
